A study of Mus musculus with 6 samples.

Results

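The constitutive proteasome genes were followed in GC B cells that could or could not receive signals through the IL-21 receptor. Members were all genes of the count table whose mouse symbol begins with Psma to Psmg and a number, without the immunoproteasome subunits Psmb8, Psmb9 and Psmb10 and without pseudogenes. The rule took 47 of the 27179 genes of the table. It is a rule on names: Psmc3ip, a partner of recombinases in meiosis, and Psme3ip1, a binding partner of Psme3, carry such a symbol and are not proteasome subunits, and they are described apart from the rest. Psme1 and Psme2 are members although they are induced by interferon, as the immunoproteasome subunits are. Psme2b, which also has such a symbol in the RefSeq gene table, had no row in the count table used here, and 45 members were expressed well enough to be tested.

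The data were 6 RNA-seq libraries of antigen-specific GC B cells from spleens of C57BL/6 mice immunized with NP-KLH in alum. Each of days 7, 10 and 14 had 1 WT and 1 Il21r-/- library. After magnetic enrichment, cells were sorted as B220+ CD38- cells that bound NP and carried IgG1, negative for CD138, Gr1, IgM and IgD. According to the labels an independent mouse gave each sample, while the methods speak of several mice per genotype over separate immunizations. The methods also state that irradiated Ly5.1 hosts given WT or Il21r-/- bone marrow served in all experiments but a BrdU and EdU time course, which the labels of these libraries do not mention, and such hosts can keep some of their own cells. Mice of the study were 6 to 26 weeks old and matched for age and sex, and the age behind each library was not given. Library totals were 27435124, 23827410 and 21353438 counts in WT on days 7, 10 and 14, and 23938323, 25664411 and 26200417 counts in Il21r-/-. With 1 library for each genotype and day, genotype was compared over the 3 days, and within a day the spread came from the model of all 6 libraries.

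The proteasome degrades proteins that carry ubiquitin chains. Its barrel, the 20S core, is made of rings of alpha and beta subunits, and 3 beta subunits, Psmb5, Psmb6 and Psmb7, hold the chymotrypsin-like, caspase-like and trypsin-like active sites. The 19S regulatory particle caps the barrel, binds ubiquitin chains, removes them and unfolds the protein with a ring of ATPases. Lymphocytes also express immunoproteasome subunits that take the places of the constitutive catalytic subunits and alter the peptides made for MHC class I. GC B cells divide fast and use the proteasome to remove cyclins and inhibitors of NF-kB.

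The libraries were first checked against their labels. Levels are given as CPM, the share of a gene in the counts of its library after TMM scaling, which evens out differences in composition between libraries. Fold changes are log2 of WT over Il21r-/-, so positive values are higher in WT, and adjusted p-values allow for the number of genes tested. Il21r stood at 343, 261 and 245 CPM in WT on days 7, 10 and 14, and at 105, 127 and 112 CPM in Il21r-/-. The genotypes did not overlap, and the log2 fold change over the 3 days was 1.29 (edgeR adjusted p = 0.00137). Reads of the Il21r gene thus remained in the Il21r-/- libraries. The GC genes S1pr2, Bcl6, Fas, Mef2b, Gcsam and Rgs13 ran from 140 CPM (Fas, WT day 10) upward in all 6 libraries. Of 8 T cell markers 6 were below the expression limit, and Cd3e was at 0 in both day 7 libraries. The most abundant was Lck, at 80.2 to 120 CPM over the 6 libraries. Cd5, which some B cells carry too, was near the limit at 0.325 to 3.42 CPM. It was called as lower in WT (-2.10, edgeR adjusted p = 0.00702).

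Of the 47 members, 45 passed the expression limit (an average log2 CPM of at least 0 over the libraries). The 2 that did not were the tissue-restricted core subunits, Psma8 of testis and Psmb11 of thymic epithelium. Psma8 held 2 to 9 counts a library and Psmb11 0 to 2, where a count of 0 allows up to 0.109 to 0.14 CPM by counting error alone. The 47 members lay on 16 chromosomes, with 9 members on chromosome 11, so they form no gene cluster, although Psme1 and Psme2 lie 5.91 kb apart and Psmb5 and Psmb11 7.31 kb apart on chromosome 14.

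Levels were compared between genes per length, as RPKM (CPM divided by the deposited gene length in kilobases). The median of the 45 members was 102, 105 and 127 RPKM in WT and 113, 102 and 116 RPKM in Il21r-/- on days 7, 10 and 14, against a median of 9.94 to 10.5 RPKM over all genes tested. Proteasome genes were thus abundant in every library. The 14 subunits of the 20S core had a median of 328 to 363 RPKM in WT and 288 to 362 RPKM in Il21r-/-, and the 17 subunits of the 19S particle 121 to 143 and 108 to 120 RPKM. The ratio of the 2 medians was 2.74, 2.6 and 2.54 in WT and 2.78, 2.66 and 3.13 in Il21r-/-, highest in the Il21r-/- library of day 14.

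Subunits of a particle that is built in fixed proportions differed widely in transcript level. Psmb1, a noncatalytic beta subunit, was the most abundant member with a mean of 694 RPKM, followed by Psmb4 with 602 RPKM and the alpha subunit Psma7 with 498 RPKM. The alpha subunits Psma3 and Psma5 stood apart from the rest of the core at means of 73.5 and 78 RPKM, and the span of Psma3 overlaps that of another counted gene by 4263 bases. Within each library the highest core subunit exceeded the lowest by a factor of 8.67 to 11. The 6 ATPases of the 19S base lay closer together, and the highest, Psmc3, exceeded the lowest, Psmc6, by a factor of 1.94 to 2.25. Among members tested, the lowest per length was Psme4, the large activator PA200 that caps the core without ATP, with 13.4, 14.3 and 11.2 RPKM in WT and 12.8, 14.6 and 10 RPKM in Il21r-/-. Psmf1, the regulator PI31, was next at a mean of 16.4 RPKM, and the assembly chaperones of the core, Psmg1 to Psmg4, had means of 47.3, 26.4, 64.2 and 59.1 RPKM, below most of the subunits they assemble. The order of these levels rests on gene lengths of the annotation and not on the transcripts in use.

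**Figure D1:**
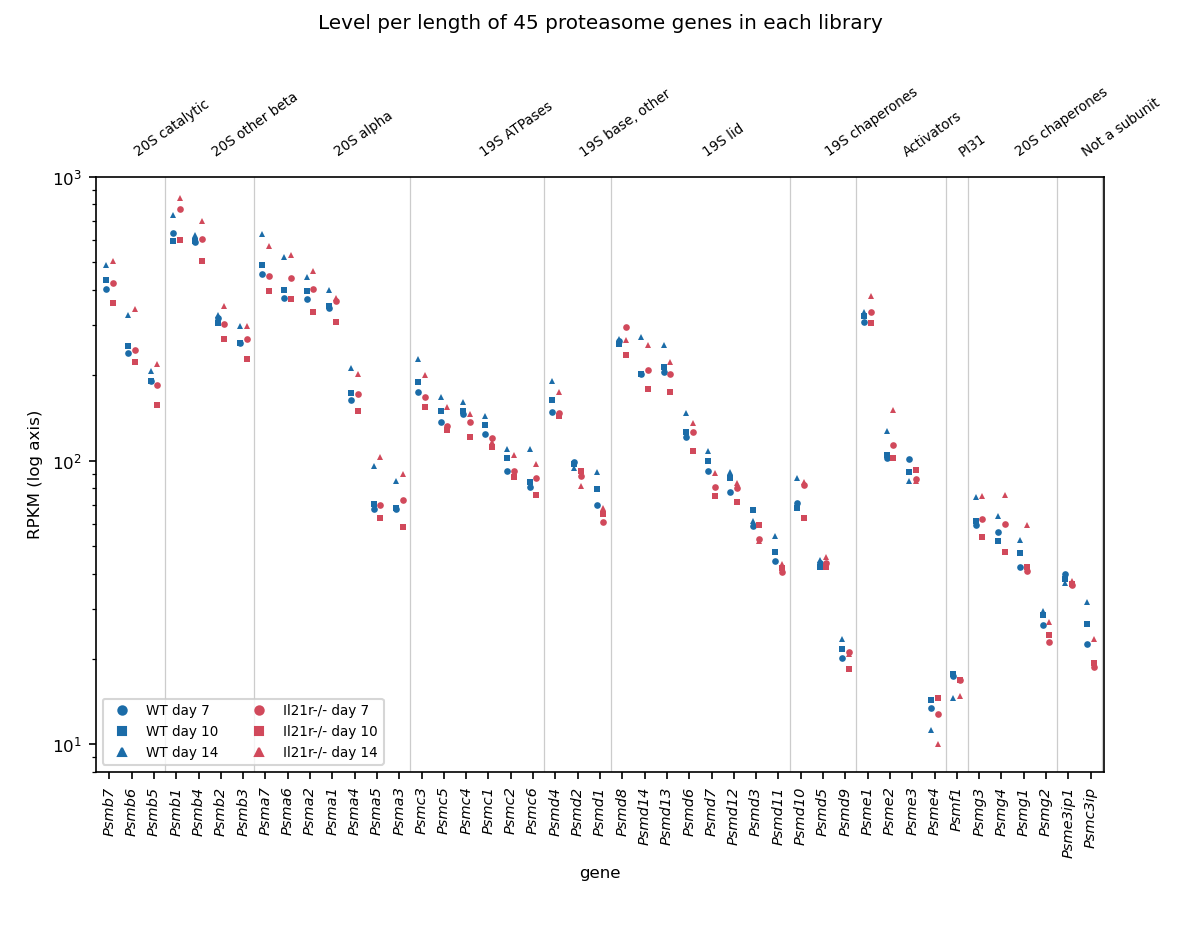
Level per length (RPKM, log axis) of the 45 tested members, grouped by role, with each library as a point (blue WT, red Il21r-/-; circle day 7, square day 10, triangle day 14). Core subunits sit highest, led by Psmb1 at a mean of 694 RPKM, with Psma3 and Psma5 low among them, and Psme4 is lowest at a mean of 12.7 RPKM.

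The 3 constitutive catalytic subunits were set beside the immunoproteasome subunits that replace them. Psmb5 stood at 191, 190 and 207 RPKM in WT and 185, 157 and 219 RPKM in Il21r-/- on days 7, 10 and 14, while Psmb8 stood at 809, 721 and 805 RPKM in WT and 913, 708 and 924 RPKM in Il21r-/-. The constitutive transcript was thus 0.202 to 0.263 times the immunoproteasome transcript in each library. Psmb6 lay at 240, 253 and 326 RPKM in WT and 245, 223 and 341 RPKM in Il21r-/-, which was 0.385 to 0.537 times Psmb9. Psmb7 went the other way. It lay at 402, 432 and 488 RPKM in WT and 422, 359 and 503 RPKM in Il21r-/-, and exceeded Psmb10 by a factor of 2.04 to 2.9. For 2 of the 3 active sites the immunoproteasome transcript was thus the more abundant, and for the third, trypsin-like site the constitutive transcript was. For the Psmb6 and Psmb7 pairs the ratio was highest on day 14 in both genotypes, and it was higher in WT than in Il21r-/- on all 3 days for the Psmb5 and Psmb6 pairs. These ratios were not tested.

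**Figure D2:**
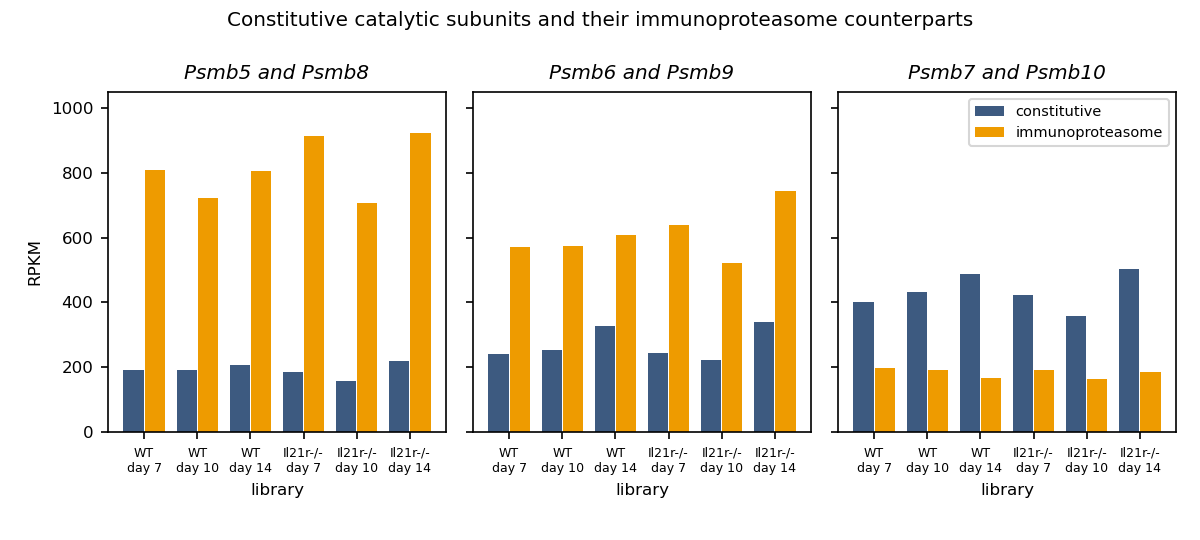
Bars give the level per length (RPKM) of each constitutive catalytic subunit (dark) and its immunoproteasome counterpart (orange) in the 6 libraries, 1 library a bar. Psmb8 and Psmb9 exceed Psmb5 and Psmb6 in every library, and Psmb7 exceeds Psmb10 by a factor of at least 2.04.

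RefSeq promoter windows of GRCm38.p6, 250 bases before to 50 bases after the start, were available for 39 of the 47 members. Psma8, Psmb1, Psmb2, Psmb7, Psmc3, Psmd3, Psmd7 and Psmg2 were not among them. Shown are the catalytic subunits Psmb5 and Psmb6, the 19S scaffold Psmd1, which had the clearest genotype difference among subunits, and Psme4, the member lower on day 14 with day as a block. Capitals mark matches, on either strand, to TGACNNNGC, the core of the antioxidant response element bound by factors of the Nfe2l1 family, to CCAAT, bound by NF-Y, or to CCGGAAG, an ETS core.
Psmb5 (chr14:54617946-54618245, minus strand): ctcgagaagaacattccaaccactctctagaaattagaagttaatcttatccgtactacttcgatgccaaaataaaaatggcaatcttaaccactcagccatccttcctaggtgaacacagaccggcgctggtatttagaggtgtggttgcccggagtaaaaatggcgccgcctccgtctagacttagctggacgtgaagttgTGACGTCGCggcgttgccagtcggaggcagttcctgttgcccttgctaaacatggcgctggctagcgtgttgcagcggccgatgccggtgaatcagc
Psmb6 (chr11:70525107-70525406, plus strand): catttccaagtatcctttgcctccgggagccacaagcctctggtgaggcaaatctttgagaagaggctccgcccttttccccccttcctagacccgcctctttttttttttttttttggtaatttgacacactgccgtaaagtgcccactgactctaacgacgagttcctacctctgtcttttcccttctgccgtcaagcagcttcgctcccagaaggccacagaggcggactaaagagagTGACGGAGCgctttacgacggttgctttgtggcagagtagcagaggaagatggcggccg
Psmd1 (chr1:86064369-86064668, plus strand): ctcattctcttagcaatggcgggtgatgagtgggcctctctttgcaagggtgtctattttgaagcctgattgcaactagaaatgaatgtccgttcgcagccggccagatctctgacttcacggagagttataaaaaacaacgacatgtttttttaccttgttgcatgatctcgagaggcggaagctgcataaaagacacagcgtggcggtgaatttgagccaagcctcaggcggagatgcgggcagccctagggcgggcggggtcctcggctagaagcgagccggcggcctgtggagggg
Psme4 (chr11:30771525-30771824, plus strand): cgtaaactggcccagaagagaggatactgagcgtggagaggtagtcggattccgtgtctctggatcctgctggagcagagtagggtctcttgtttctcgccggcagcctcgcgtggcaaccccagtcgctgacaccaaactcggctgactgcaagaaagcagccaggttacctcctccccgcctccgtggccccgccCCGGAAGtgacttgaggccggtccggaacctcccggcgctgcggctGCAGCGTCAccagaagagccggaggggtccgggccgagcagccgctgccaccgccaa
The windows of Psmb5 and Psmb6 each held 1 match to TGACNNNGC, that of Psme4 held 1 match to TGACNNNGC and 1 to CCGGAAG, and that of Psmd1 held none of the 3. Over all 27025 promoters TGACNNNGC was found in 12.5%, CCAAT in 37.9% and CCGGAAG in 9.12%. Over the 8529 promoters of tested genes the shares were 15.2%, 40.2% and 21%, and over the 39 member promoters 15.4%, 35.9% and 35.9%. A match says that these letters are in the window and no more.

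The comparison of WT with Il21r-/- asked whether proteasome expression in GC B cells depends on the IL-21 receptor. Differences were small in all members. Over the 3 days 35 of the 45 members tested were higher in WT, with a median log2 fold change of 0.07 and a range from -0.17 (Psmb1) to 0.39 (Psmc3ip), against a median of -0.01 over all genes tested. Without the Il21r-/- day 10 library 22 of the 45 were higher in WT, at a median of -0.01, so the tilt of the whole set needed that library. Leaving out the Il21r-/- day 7 or day 14 library moved it the other way, to 41 of 45 at 0.15 and 40 of 45 at 0.12. No member was called (edgeR quasi-likelihood test, adjusted p under 0.05) where 5.92% of all genes were called. At an unadjusted p under 0.05 in edgeR there were 4 members and 21.4% of all genes, and DESeq2 also called 0 members and 8.64% of all genes. With day as a block, a fit that compares WT and Il21r-/- within each day, 22.9% of all genes and 9.33% as higher in WT were called, and among members 3 were called, all as higher in WT: Psmd1, Psmc3ip and Psmd7. In bulk RNA a lower transcript level per cell and a lower share of cells that express it cannot be told apart.

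Psmd1, the largest subunit of the 19S base and a scaffold for ubiquitin receptors, lies at chr1:86064619-86139295. It stood at 227, 258 and 296 CPM in WT on days 7, 10 and 14 and at 198, 210 and 221 CPM in Il21r-/-. All WT libraries were above all Il21r-/- libraries, and the gap was widest on day 14, at a log2 fold change of 0.43 against 0.20 on day 7 and 0.30 on day 10. Over the 3 days the log2 fold change was 0.31 ± 0.0924 (SE; edgeR adjusted p = 0.0951), and with day as a block the adjusted p was 0.00379. Left-out libraries moved that call: without either day 14 library no member was called with day as a block, and without the Il21r-/- day 10 library Psmd1 passed without the block too (edgeR adjusted p = 0.0278). Its span overlaps that of Htr2b by 18686 bases, a gene with a mean of 5 counts a library.

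Psmd7, the lid subunit that pairs with the deubiquitinase Psmd14, lies at chr8:107580380-107588482. It stood at 147, 159 and 173 CPM in WT and at 130, 120 and 145 CPM in Il21r-/-. WT libraries were again all above Il21r-/- libraries. The log2 fold change was 0.28 ± 0.0958 (SE; edgeR adjusted p = 0.132), and with day as a block the adjusted p was 0.00965, a call that was lost without any 1 of the day 10 and day 14 libraries.

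Psmc3ip, which helps recombinases in homologous pairing and is not a subunit, was the member with the largest fold change. It stood at 21.9, 25.9 and 30.9 CPM in WT and at 18.3, 18.7 and 22.8 CPM in Il21r-/-. WT was higher on all 3 days, although WT on day 7 lay below Il21r-/- on day 14. The log2 fold change was 0.39 ± 0.112 (SE; edgeR adjusted p = 0.0859), and with day as a block the adjusted p was 0.00823. Without the Il21r-/- day 10 library Psmc3ip passed without the block (edgeR adjusted p = 0.0494), and with the block it was not called once any 1 of the day 10 and day 14 libraries was left out. Its gene shares 67 bases with the neighbouring gene Mlx, and reads there cannot be assigned to either without strand.

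The tilt toward WT was larger in the 19S particle than in the core. Over the 3 days 16 of the 17 19S subunits were higher in WT with a median log2 fold change of 0.15, against 10 of the 14 core subunits with a median of 0.03. All 6 ATPases (Psmc1 to Psmc6) were higher in WT, from 0.07 (Psmc6) to 0.20 (Psmc1), as were the 3 non-ATPases of the base, from 0.11 (Psmd4) to 0.31 (Psmd1). In the lid 7 of 8 subunits were higher in WT, and Psmd8 was at -0.02. The catalytic subunits were close to equal at 0.07 (Psmb5), 0.02 (Psmb6) and 0.04 (Psmb7), and the alpha subunits ran from -0.06 (Psma6) to 0.15 (Psma7). With DESeq2 size factors the counts were 16 of 17 and 11 of 14. Without the Il21r-/- day 10 library they were 14 of 17, at a median of 0.09, and 1 of 14, at a median of -0.08, and Psmb5, Psmb6 and Psmb7 stood at -0.04, -0.09 and -0.06. The core was also at 7 of 14 without the WT day 7 library, and with day as a block at 3 of 14 without either day 10 library. It was at 13 of 14 (median 0.14) without the Il21r-/- day 7 library and 12 of 14 (0.12) without the Il21r-/- day 14 library. With the block it was at 13 of 14 without either day 7 library. The core thus had no stable direction. The difference between the particles was not tested.

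Members whose 3 WT libraries all lay above the 3 Il21r-/- libraries numbered 6 of 45, or 13.3%, where 8.33% of all genes did so. They were Psmc1, Psmc4, Psmd1, Psmd2, Psmd7 and Psmd11, all of the 19S particle and named here after their values were seen. No member lay below in all WT libraries, where 10% of all genes did. WT was higher on each of the 3 days in 15 members (33.3%), where 25.4% of all genes were, and 12 of these 15 were 19S subunits. WT was lower on each day only in Psmb1 (2.22% of members), where 27.9% of all genes were lower, and with DESeq2 size factors in no member.

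Psmb1 had the lowest log2 fold change. It stood at 655, 613 and 760 CPM in WT and at 794, 619 and 874 CPM in Il21r-/-, so the genotypes overlapped and were nearly equal on day 10. The log2 fold change was -0.17 ± 0.139 (SE; edgeR adjusted p = 0.515), and ran from -0.30 without the Il21r-/- day 10 library to -0.02 without the Il21r-/- day 7 library. Psme2, a subunit of the PA28 activator, came next at 99.4, 102 and 125 CPM in WT and 110, 99.9 and 148 CPM in Il21r-/-, with a log2 fold change of -0.13 (edgeR adjusted p = 0.579) that ran from -0.23 without the Il21r-/- day 10 library to -0.01 without the Il21r-/- day 14 library. Psmg4, a core chaperone, was at 30.3, 28.1 and 34.6 CPM in WT and 32.5, 25.7 and 40.8 CPM in Il21r-/-, with a log2 fold change of -0.08 (edgeR adjusted p = 0.797). Its sign turned to 0.04 without the Il21r-/- day 7 library and to 0.08 without the Il21r-/- day 14 library.

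**Figure D3:**
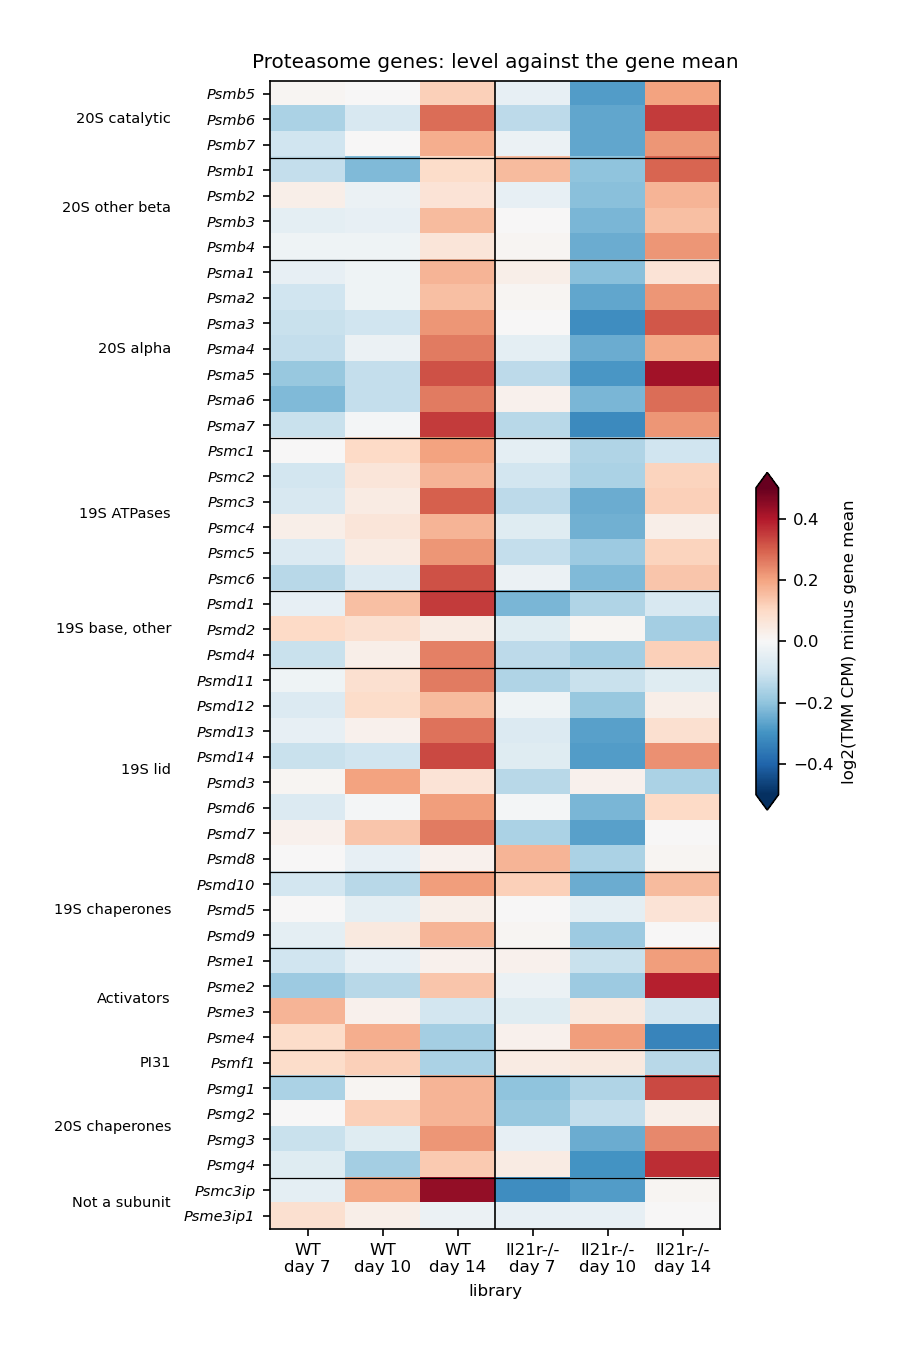
Each cell is log2 TMM CPM in a library minus the mean of that gene over the 6 libraries, for the 45 tested members in order of role (red above the mean, blue below). The Il21r-/- day 10 column is the lowest for 32 of the 45 members, and day 14 is high in both genotypes for the core but mainly in WT for the 19S particle.

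Within each day the members were read from 1 library a genotype. On day 7 no member was called, where 1.07% of all genes were, and 22 of the 45 members were higher in WT at a median log2 fold change that rounds to 0. On day 10 no member was called against 3.1% of all genes, yet 42 of 45 were higher in WT at a median of 0.19. On day 14 no member was called against 3.28% of all genes, and 27 of 45 were higher in WT at a median of 0.06. At an unadjusted p under 0.05 in edgeR there were 0, 2 and 1 members and 5.51%, 10.8% and 12.1% of all genes on days 7, 10 and 14, and DESeq2 and the fit with day as a block called 0 on each day. Of all genes DESeq2 called 0.291%, 1.2% and 0.845% on these days and the block 2.75%, 7.47% and 9.59%. DESeq2, in a fit that sets WT on each day against a straight line through the 3 Il21r-/- libraries, had 38, 28 and 34 of 45 members higher in WT, so the order of the days depended on the model. Over all genes tested 50.5%, 47.6% and 48.5% were higher in WT on these days.

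The direct comparison of the libraries of a day was also read by particle. Core subunits were higher in WT in 3 of 14 on day 7, 13 of 14 on day 10 and 4 of 14 on day 14, with medians of -0.06, 0.20 and -0.07. The 19S subunits were higher in WT in 12, 17 and 17 of 17, with medians of 0.05, 0.22 and 0.18. On day 10 Psmb1, at -0.01, was the only core subunit not higher in WT. The fit of DESeq2 against the Il21r-/- line gave 12, 6 and 11 of 14 for the core and 16, 14 and 17 of 17 for the 19S particle, so the day 10 values of the core held only against the Il21r-/- day 10 library itself. In that library 13 of 14 core and 13 of 17 19S subunits had their lowest level of the 6 libraries. The genotype by day term called no member and 0% of all genes with edgeR, DESeq2 called 0 members, and 0 members and 1.07% of all genes were at an unadjusted p under 0.05. The fit with day as a block called 0 members and 0.282% of all genes, so that a difference between days was not shown for members.

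**Figure D4:**
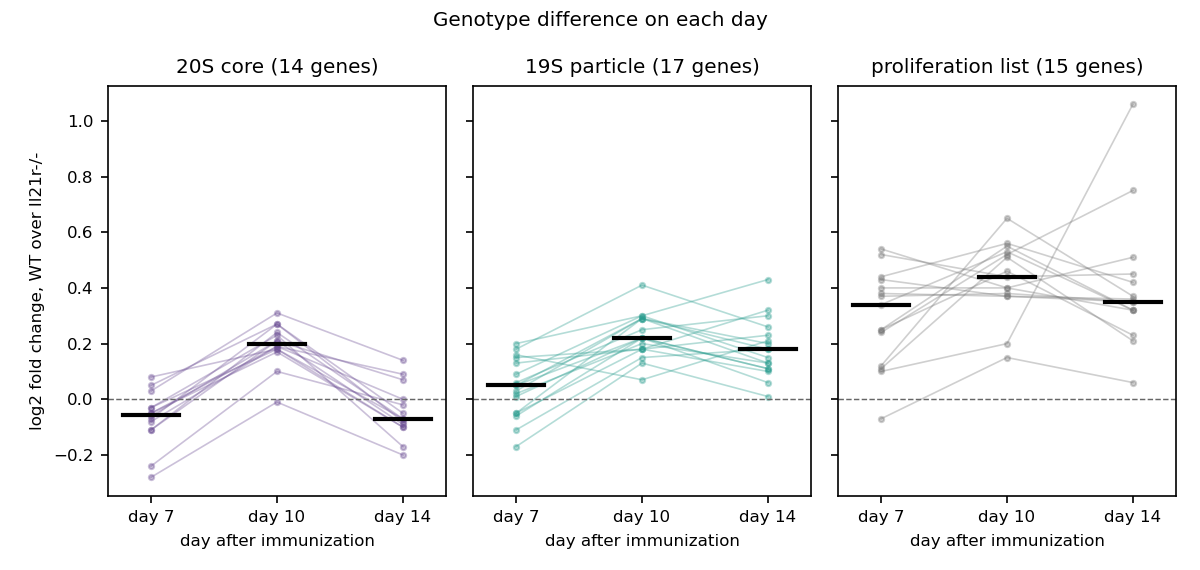
Log2 fold change of WT over Il21r-/- on each day for the 14 core subunits, the 17 19S subunits and the 15 genes of the proliferation list; thin lines join a gene and black bars are medians. Core medians are -0.06, 0.20 and -0.07, 19S medians 0.05, 0.22 and 0.18, and proliferation medians 0.34, 0.44 and 0.35.

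Other gene lists were read by genotype beside the proteasome genes, and in most of them few genes were called. In a list of 15 proliferation genes all 15 were higher in WT over the 3 days at a median log2 fold change of 0.38. Of these Rrm2, a subunit of ribonucleotide reductase, was called (0.48, edgeR adjusted p = 0.0273), and with day as a block 13 were. Fcer2a, a marker of naive or memory B cells, stood at 389, 217 and 153 CPM in WT and 802, 783 and 507 CPM in Il21r-/-, at a log2 fold change of -1.54 (edgeR adjusted p = 0.00119). Ccr7 (-1.81) and Klf2 (-1.02), also read as such markers, were called as lower in WT, while Ighd stayed between 0.976 and 1.66 CPM. The 5 B cell genes summed to 9121, 6959 and 7411 CPM in WT and 10948, 8232 and 8483 CPM in Il21r-/-, led by Ms4a1, with Pax5 called as lower in WT (-0.67, edgeR adjusted p = 0.0387). The plasma cell list summed to 3840, 3553 and 4034 CPM in WT and 4659, 3936 and 5222 CPM in Il21r-/-, led by Jchain. Of its 5 tested genes Prdm1 was called as higher (1.64) and Xbp1 as lower (-0.39) in WT. Prdm1 was near the expression limit, at 1.38, 1.82 and 1.58 CPM in WT and 0.26, 0.605 and 0.677 CPM in Il21r-/-. With day as a block 1 gene of this list was called as higher and 4 as lower in WT. Myeloid markers, led by Lyz2, summed to at most 10.1 CPM and erythroid markers, led by Hba-a2, to at most 40.7 CPM, of which Car2 was called as lower in WT (-0.85, edgeR adjusted p = 0.0298). Their part in the proteasome differences was not tested.

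The comparison over days asked whether proteasome expression moves as the GC matures. From day 7 to day 14 most members were higher in both genotypes. The linear day slope was positive in 39 of 45 members, with a median of 0.029 log2 units per day against 0.001 over all genes tested. That median was 0.047 without the Il21r-/- day 7 library, 0.021 without the Il21r-/- day 14 library, and 0.018 with day as a block without the WT day 7 library. With edgeR no member was called, where 4.43% of all genes were, 14 members and 23.5% of all genes were at an unadjusted p under 0.05, and DESeq2 called 2, Psma5 and Psmb6, and 7.91% of all genes. With day as a block, a test of any difference among the 3 days, 22 members were called where 36.1% of all genes were. Of these, 21 were higher on day 14 than on day 7, as 19% of all genes were, and 1 was lower, as 17% of all genes were. Without the Il21r-/- day 10 library 13 members were called in the linear fit, all among those 22, and 19.7% of all genes. Some markers were called by day with edgeR in all 6 libraries. Of the naive or memory markers, Cd38 (-0.438 log2 units per day, adjusted p = 0.00465), Klf2 (-0.176, 0.0088) and Fcer2a (-0.146, 0.023) fell. The GC genes Rgs13 (0.283, 0.00134) and Gcsam (0.088, 0.0283) rose. In the proliferation list 9 of 15 genes were called by day with the block. The part of these genes in the rise of members was not tested.

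Every core subunit was higher on day 14 than on day 7 in both genotypes, at median log2 fold changes of 0.27 in WT and 0.25 in Il21r-/-. With day as a block 10 of the 14 were called, where 36.1% of all genes were: Psmb6 and Psmb7 among catalytic subunits, Psmb1 and Psmb3 among other beta subunits, and all alpha subunits but Psma1. With the block the core count stayed at 10 without the WT or Il21r-/- day 7 library (23.8% and 29.3% of all genes called). It was 12 without the WT day 10 library (34.7%). It fell to 6 without the Il21r-/- day 10 library (20.4% of all genes called), where Psmb1, Psmb3, Psmb7 and Psma2 lost the call, and to 5 without the WT or Il21r-/- day 14 library (18.4% and 17.7%). Psma5, an alpha subunit at chr3:108256926-108279952, had the steepest slope. It stood at 81.9, 85.7 and 116 CPM in WT and at 84.9, 76.1 and 125 CPM in Il21r-/-, so that days 7 and 10 were alike and day 14 stood above them in both genotypes, by 41.8% and 47% over day 7. Its slope was 0.079 ± 0.022 (SE) log2 units per day (edgeR adjusted p = 0.0759), and with day as a block the adjusted p was 7.2e-05. It was chosen after values were seen.

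Among the catalytic subunits Psmb6 moved most. At chr11:70525324-70527858, it stood at 248, 262 and 338 CPM in WT and at 254, 231 and 353 CPM in Il21r-/-. Both day 14 libraries were above the other 4. The slope was 0.069 ± 0.020 (SE) log2 units per day (edgeR adjusted p = 0.0892), and with day as a block the adjusted p was 0.000161. Psmb7 stood at 390, 419 and 472 CPM in WT and at 409, 348 and 488 CPM in Il21r-/-, with a slope of 0.040 (edgeR adjusted p = 0.263) and an adjusted p of 0.0148 with day as a block. That call was lost without the Il21r-/- day 10 or either day 14 library. Psmb5 stood at 167, 165 and 180 CPM in WT and at 161, 137 and 191 CPM in Il21r-/-, with a slope of 0.028 (edgeR adjusted p = 0.426) and an adjusted p of 0.0521 with day as a block. The 3 catalytic subunits thus shared a low point in the Il21r-/- day 10 library and their highest level on day 14.

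The 19S particle was less uniform. Of its 17 subunits 16 were higher on day 14 than on day 7 in WT, at a median log2 fold change of 0.28, and 13 in Il21r-/-, at a median of 0.14. The fit with day as a block called 5 of 17, where it called 36.1% of all genes, and with a library left out from 1 (without WT day 14, 18.4% of all genes) to 7 (without WT day 10, 34.7% of all genes). The 5 were all higher on day 14: the ATPases Psmc3 and Psmc6, the ubiquitin receptor Psmd4, the lid subunit Psmd13 and the deubiquitinase Psmd14. Psmd1 went from 227 to 296 CPM in WT, 30.4% more, and from 198 to 221 CPM in Il21r-/-, 11.4% more, and was not called by day (edgeR adjusted p = 0.197, and 0.0684 with day as a block). Psmd2, the other large subunit of the base, was slightly lower on day 14 in both genotypes, by a log2 slope of -0.013 per day.

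**Figure D5:**
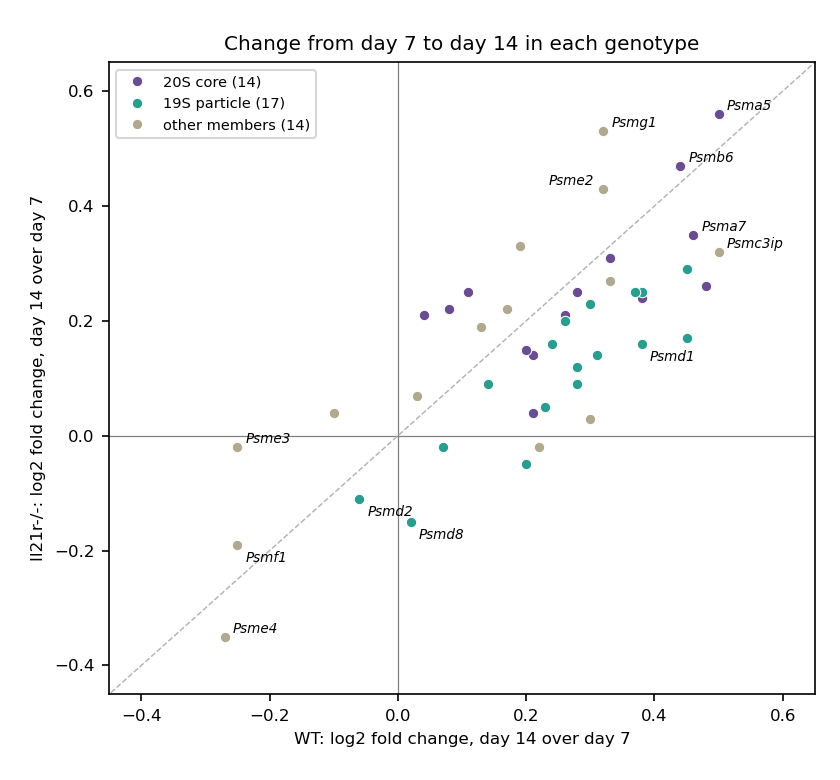
Log2 fold change from day 7 to day 14 of the 45 tested members in WT (horizontal) and Il21r-/- (vertical), 1 library a day; the dashed line marks equal change. Of the 45 members 36 are above 0 on both axes and 4, Psmd2, Psme3, Psme4 and Psmf1, are below 0 on both, and most 19S subunits lie under the line.

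The activators did not move alike. Psme4 was the single member called as lower on day 14 with day as a block. It stood at 86.6, 91.8 and 71.9 CPM in WT and at 82.3, 93.7 and 64.5 CPM in Il21r-/-, highest on day 10 and lowest on day 14 in both genotypes, with a slope of -0.048 ± 0.023 (SE) log2 units per day (edgeR adjusted p = 0.245) and an adjusted p of 0.0034 with day as a block, a call lost without the Il21r-/- day 14 library, as was that of Psme2. The span of Psme4 overlaps that of Erlec1 by 18357 bases, and whether any of its reads are shared was not examined. Psme2 had a positive slope of 0.056 (edgeR adjusted p = 0.136, and 0.00231 with day as a block), whereas its PA28 partner Psme1 had a slope of 0.024 (edgeR adjusted p = 0.438) and the nuclear activator Psme3 one of -0.021 (edgeR adjusted p = 0.488). Psme2 has an intronless copy, Psme2b, and reads shared with it cannot be told apart. Of the core chaperones Psmg1, Psmg3 and Psmg4 were called as higher on day 14 with day as a block, and of the 19S chaperones Psmd10, which overlaps Atg4a by 2867 bases, was. Left-out libraries ended these calls: that of Psmg1 without the Il21r-/- day 14 library, that of Psmg4 without the Il21r-/- day 10 or day 14 library, and those of Psmg3 and Psmd10 without the Il21r-/- day 10 or either day 14 library. Psmf1 (-0.033) and Psme3ip1 (-0.004) were not called, and Psmc3ip (0.059) was called with day as a block, but not without the WT day 7, the Il21r-/- day 10 or either day 14 library.

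Over all genes tested 38.6% were higher on day 14 in both genotypes, where 36 of the 45 members (80%) were. These comparisons share the same libraries with the genotype comparison, and mice of different days were not the same animals.

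Partners and regulators outside the naming rule were read from lists. Of 10 partners without a Psm symbol 9 had a row and edgeR called 0 by genotype or by day. With day as a block Ecpas, an adaptor that binds the 19S particle, was called as higher in WT (0.34, edgeR adjusted p = 0.00434), at 70.9, 91.1 and 83.8 CPM in WT and 60.9, 74.7 and 58.8 CPM in Il21r-/-. Day was called with the block in 4 of the 9, where 36.1% of all genes were: Ecpas, Ubr4, the core maturation factor Pomp and the 19S-bound thioredoxin Txnl1. Sem1 and the ubiquitin receptor Adrm1, both 19S subunits by another name, were at log2 fold changes of -0.05 and 0.17.

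Of 8 genes that regulate proteasome transcription 7 were tested and 0 were called by genotype or by day, with Nfe2l3 near 0. Nfe2l1, the factor that restores proteasome transcription when the proteasome is inhibited, was at 38, 42.3 and 38.9 CPM in WT and 37.9, 52.2 and 44.5 CPM in Il21r-/-. Nfe2l2, the regulator of the oxidative stress response, was at 50.2, 51 and 46.2 CPM in WT and 42.1, 43.9 and 32.9 CPM in Il21r-/-, and was called as higher in WT with day as a block (0.32, edgeR adjusted p = 0.0141, against 0.153 without). Rps27a, which encodes ubiquitin fused to a ribosomal protein, was called as lower in WT with day as a block (-0.28, edgeR adjusted p = 0.00639, against 0.269 without). The 3 immunoproteasome subunits were not called by genotype, at -0.12 (Psmb8), -0.12 (Psmb9) and 0.03 (Psmb10), and with day as a block Psmb8 was called by day.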

How the data were processed

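The authors mapped 100 bp single-end HiSeq reads to mm10 with Rsubread, assigned them to genes by featureCounts with the RefSeq annotation that it brings, and deposited raw counts per gene. CASAVA 1.8.2 is named in the submitters' processing notes. Libraries came from TruSeq RNA v2, which does not mark strand. Strand and multi-mapping settings were not given in the sources used here. Total counts were 21353438 to 27435124 a library. Counts for all 27179 genes were identical in the table of all libraries and in the 6 single files. Symbols were matched by Entrez identifier to RefSeq (25275 genes) and GENCODE (18 genes) of GRCm38.p6, and 1886 had none. Groups followed the labels.

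Genes with aveLogCPM of at least 0 were kept, except Ig variable genes, Xist and genes of the Y chromosome, which left 11005. edgeR 4.0.16 in R 4.3.3 with TMM fitted genotype and a linear day term over all 6 libraries, and quasi-likelihood tests gave genotype over the 3 days and the day slope, with 3 residual degrees of freedom. Genotype on each day was tested by likelihood ratio with the spread of that model, and genotype by day by quasi-likelihood. p-values were adjusted over all genes tested (Benjamini-Hochberg), with calls at 0.05. Exact permutation of 3 against 3 libraries cannot go below 0.10, so none was used. The spread of the model was a biological coefficient of variation of 13.1%. Positive fold changes are higher in WT. Standard errors are the quasi-likelihood ones. p-values measure the spread between these libraries.

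Libraries of the same day shared deviations from their genotype means (r = 0.64, 0.413 and 0.645 across genes on days 7, 10 and 14), so day pairs the libraries, and the fit with day as a block, with 2 residual degrees of freedom, is given where it changed a call. Alternatives were DESeq2 1.42.0 size factors, at least 10 counts in every library, any count, left-out genes kept, the block, DESeq2's Wald test (with a linear day for the tests on each day) and each library left out. The block with each library left out was added after seeing the data. Members and lists were chosen with earlier results of these data known. Named were the catalytic subunits, members called, the 3 largest fold changes in each direction, the highest and lowest level per length, and genes of the lists. Members named only through the block were chosen after values were seen. The search of promoters used the first listed window of each gene.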

Additional observations from a re-analysis of the deposited data

How the results depend on the processing

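No member was called for genotype over the 3 days with DESeq2 size factors, either expression filter, the left-out genes kept or DESeq2's Wald test, and none was called on any single day or by genotype and day under any alternative run for these tests, which left out the block with a library removed. With day as a block the members called for genotype numbered 3, with a library left out 0 to 2, and with both 1 without either day 10 library, 5 without either day 7 library and 0 without either day 14 library. Genes called for genotype were 651, against 1028 with any count, 2519 with day as a block, 136 to 2138 with a library left out, and 2193, 2187, 1650, 1614, 1029 and 1115 with the block and WT or Il21r-/- left out on day 7, day 10 and day 14 in turn. Members called for the day slope were 0, against 1 with any count, 22 with the block, 2 with DESeq2, 0 to 13 with a library left out, and 20, 23, 26, 12, 10 and 7 with the block and a library left out in the same order. Genes called for the slope were 488, against 880 with any count, 3969 with the block, 870 with DESeq2, 0 to 2159 with a library left out, and 2626, 3227, 3829, 2242, 2027 and 1948 with the block. The median slope of members was 0.029, 0.021 to 0.047 with a library left out and 0.018 to 0.041 with the block. Fold changes close to 0 turned sign with a library left out. Psmb5 went from 0.07 to between -0.04 (without Il21r-/- day 10) and 0.20 (without Il21r-/- day 14), and with the block to -0.02 and -0.02 without either day 10 library. Psmb6 went from 0.02 to -0.02 without WT day 7, -0.09 without Il21r-/- day 10 and at most 0.12, and to -0.05 and -0.05 with the block. Psmb7 went from 0.04 to between -0.06 (without Il21r-/- day 10) and 0.16 (without Il21r-/- day 7), and -0.06 and -0.06 with the block. Psme4 went from 0.06 to -0.003 without Il21r-/- day 7, -0.01 without WT day 10 and -0.03 without Il21r-/- day 14, and was 0.18 at most. Psmg4 went from -0.08 to 0.04 without Il21r-/- day 7 and 0.08 without Il21r-/- day 14, was -0.23 at least, and was 0.01 and 0.01 with the block without either day 14 library. Psmb1 (-0.17) ran from -0.30 without Il21r-/- day 10 to -0.02 without Il21r-/- day 7, and Psme2 (-0.13) from -0.23 without Il21r-/- day 10 to -0.01 without Il21r-/- day 14. Psmd1 (0.25 to 0.37), Psmd7 (0.22 to 0.36) and Psmc3ip (0.35 to 0.46) stayed higher in WT.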
